A study of Homo sapiens with 13 samples.

Results

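The genes described here are 39 human genes of the hypoxia response and of glycolysis, of which 28 are targets of low oxygen and 11 are housekeeping glycolytic enzymes. They were listed by symbol, and all 39 were found in both deposited tables, the bulk table of 57820 gene identifiers and the single-cell table of 15005 genes. The tumours grew from BM1, a line selected for spread to bone out of MDA-MB-231 human breast cancer cells, after 1000000 cells had been placed in a mammary fat pad of an athymic nude mouse, a host without T cells that keeps its other leukocytes. Bulk RNA was sequenced from 5 KMT5C tumours, whose cells carried a lentiviral vector driving human KMT5C, a histone H4 lysine 20 methyltransferase, from the EF1a promoter with hygromycin selection, and from 5 CTRL tumours of cells with the vector alone, all taken at 4 weeks. Single cells were sequenced on the Fluidigm C1 HT system from 3 RKIP tumours, whose cells expressed RKIP-S153E, a mutant of an inhibitor of the RAF kinase cascade, and from 3 CTRL tumours with vector control, all taken at 3 weeks after dissociation, depletion of mouse cells and removal of dead cells. The labels do not say how many separately made lines each arm held, so a difference between lines cannot be told apart from the construct.

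In cells with enough oxygen, prolyl hydroxylases mark the HIF alpha subunits for destruction through the VHL ubiquitin ligase. When oxygen falls, HIF alpha persists, pairs with ARNT and binds short DNA elements near genes for glucose uptake, glycolysis, acid export, blood vessel growth and mitochondrial restraint. Solid tumours commonly hold such poorly oxygenated zones, and many glycolytic enzymes are made in every cell and raised further by HIF.

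The promoters of 4 members whose counts moved together over cells and of CA12, the 1 member called between the bulk arms, are shown because HIF recognises the core letters RCGTG, searched here as ACGTG and GCGTG on both strands. Each window runs from 250 bases before to 50 bases after the RefSeq gene start on GRCh38.p14, is written 5′ to 3′ in the direction of the gene, and has the matched letters of either strand in capitals. The PGK1 window lies at chrX:78103998-78104297 (plus strand), the LDHA window at chr11:18394313-18394612 (plus strand) and the BNIP3 window at chr10:131981874-131982173 (minus strand). The CA9 window lies at chr9:35673678-35673977 (plus strand) and the CA12 window at chr15:63381797-63382096 (minus strand).
PGK1: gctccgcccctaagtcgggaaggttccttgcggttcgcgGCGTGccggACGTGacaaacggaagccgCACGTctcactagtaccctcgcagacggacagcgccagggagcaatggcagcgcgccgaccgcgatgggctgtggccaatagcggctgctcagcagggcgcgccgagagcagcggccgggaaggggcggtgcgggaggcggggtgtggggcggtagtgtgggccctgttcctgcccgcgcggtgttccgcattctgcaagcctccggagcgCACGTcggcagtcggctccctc
LDHA: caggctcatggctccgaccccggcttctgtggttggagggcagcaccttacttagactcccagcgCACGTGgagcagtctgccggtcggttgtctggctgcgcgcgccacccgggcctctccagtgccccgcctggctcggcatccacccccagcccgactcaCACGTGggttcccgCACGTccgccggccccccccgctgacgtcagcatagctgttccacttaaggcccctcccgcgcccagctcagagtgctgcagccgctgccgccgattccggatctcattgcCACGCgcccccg
BNIP3: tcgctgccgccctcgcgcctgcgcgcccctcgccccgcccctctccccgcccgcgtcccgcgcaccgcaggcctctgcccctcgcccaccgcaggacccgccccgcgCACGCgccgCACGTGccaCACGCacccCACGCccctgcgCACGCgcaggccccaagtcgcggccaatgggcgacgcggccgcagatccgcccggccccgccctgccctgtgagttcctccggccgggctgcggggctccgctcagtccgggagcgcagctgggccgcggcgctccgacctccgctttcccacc
CA9: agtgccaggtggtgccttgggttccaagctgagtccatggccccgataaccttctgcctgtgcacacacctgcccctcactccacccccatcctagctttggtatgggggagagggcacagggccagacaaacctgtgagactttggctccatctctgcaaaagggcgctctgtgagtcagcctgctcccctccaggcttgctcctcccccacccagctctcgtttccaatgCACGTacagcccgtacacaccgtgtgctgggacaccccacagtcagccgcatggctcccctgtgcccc
CA12: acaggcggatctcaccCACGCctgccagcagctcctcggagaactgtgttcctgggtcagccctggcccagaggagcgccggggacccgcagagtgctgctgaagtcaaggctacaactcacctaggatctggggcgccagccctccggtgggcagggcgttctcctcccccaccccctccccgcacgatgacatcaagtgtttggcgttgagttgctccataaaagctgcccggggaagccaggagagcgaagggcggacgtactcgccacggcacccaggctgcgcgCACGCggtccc

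Counting matches that share bases once, the BNIP3 window held 5, the PGK1 and LDHA windows 4 each, the CA12 window 2 and the CA9 window 1, which lay 18 bases before the start. RefSeq promoters were matched for 35 of the 39 members. At least 1 match was present in 19 of 24 hypoxia targets and in 7 of 11 enzymes, against 48.4% of all 27303 promoters searched. At least 2 were present in 9 of the 24 hypoxia targets and in 3 of the 11 enzymes, against 20.05% of all promoters. The promoters searched were not matched to those of the members in base composition or in the level of their genes. These are matches of letters, and binding was not measured.

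The bulk libraries held 37050750 to 49536763 counts each. The construct gene KMT5C had 99.8 to 145 CPM (counts per 1000000 counts of the scaled library) in KMT5C tumours and 7.16 to 11.2 CPM in CTRL tumours. The single-cell tumours held 256 to 274 cells in the RKIP arm and 247 to 267 cells in the CTRL arm, with 1568 cells used and medians of 55704 to 95289 counts per cell. Rat Pebp1 had 11.9 to 205 CPM in RKIP tumours and 0 to 0.608 CPM in CTRL tumours. All 8 markers of the breast cancer line were present in both tables. Markers of host tissue were counted in the bulk libraries. The 13 skeletal muscle markers summed to 33.5 to 59.3 CPM in KMT5C tumours and to 20.8 to 27.5 CPM in CTRL tumours. MYLPF was not listed or at 0. Fibroblast markers summed to 422 to 1015 CPM in KMT5C tumours and to 330 to 894 CPM in CTRL tumours. Endothelial markers summed to 192 to 247 CPM in KMT5C tumours and to 205 to 254 CPM in CTRL tumours. In edgeR 6 of 10 muscle markers tested were called higher in KMT5C tumours, where 1.06% of all genes were. Of 8 endothelial markers tested 1 was called lower, and of 5 leukocyte markers tested 1 was, where 1.9% of all genes were. Of the fibroblast, adipocyte and keratinocyte markers tested none was called. The 9 leukocyte markers summed to 98.5 to 121 CPM in KMT5C tumours and to 128 to 179 CPM in CTRL tumours, with TYROBP not listed or at 0. LAPTM5 made up most of that sum, with 89.6 ± 10.8 CPM in KMT5C tumours and 140 ± 19.8 CPM in CTRL tumours (SD, n = 5 each), while PTPRC averaged 0.488 CPM in KMT5C tumours and 0.557 CPM in CTRL tumours. In the single-cell libraries 11 of 13 muscle markers and 7 of 9 leukocyte markers were not listed or at 0. The leukocyte sum there was 104 to 116 CPM in RKIP tumours and 87.6 to 124 CPM in CTRL tumours, again mostly LAPTM5, so that LAPTM5 was also counted after mouse cell depletion. In bulk, keratinocyte markers summed to 58.0 to 173 CPM in KMT5C tumours and to 42.2 to 91.3 CPM in CTRL tumours. Adipocyte markers summed to at most 2.56 CPM. The part of these host markers in the bulk results was not tested, except that results are given below without the KMT5C tumours highest in muscle markers.

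Between the bulk arms, 1 of the 39 members passed the test, the carbonic anhydrase CA12, and it fell in KMT5C tumours. Over all 17947 genes tested with edgeR's quasi-likelihood test, 2.96% were called at an adjusted p under 0.05, which were 1.06% of all genes higher and 1.9% lower in KMT5C tumours. The median log2 fold change was -0.01 over the 28 hypoxia targets, -0.02 over the 11 enzymes and 0.00 over all genes tested. The ranges of the arms overlapped for all 39 members, where 2.44% of all genes had every KMT5C tumour above every CTRL tumour and 3.26% had every one below. In bulk RNA, fewer cells of a kind and less RNA per cell cannot be told apart.

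**Figure D1:**
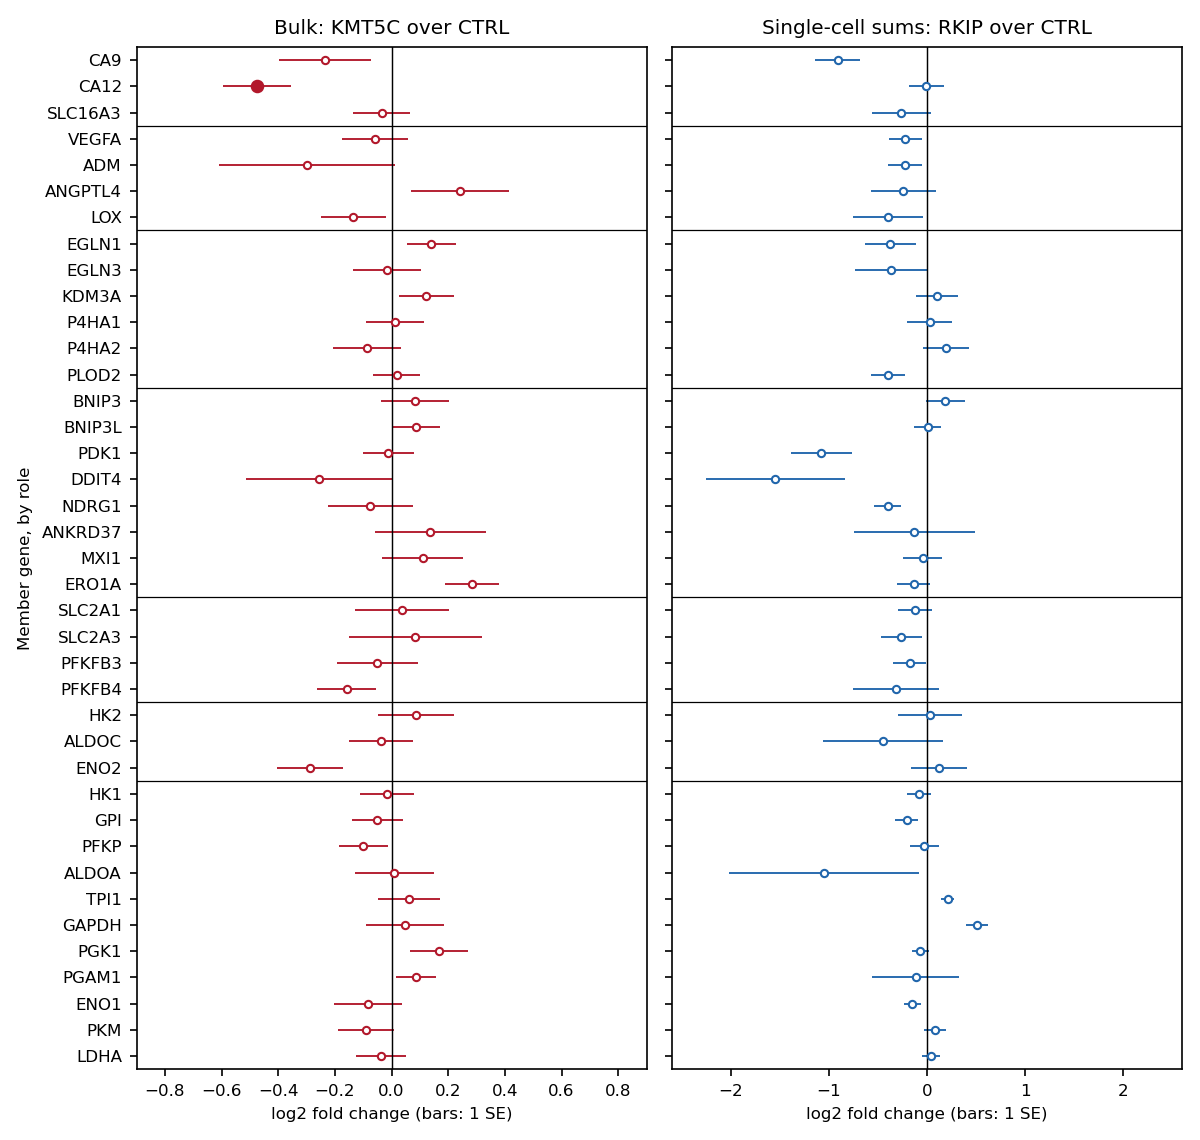
Log2 fold changes of the 39 members, with bars of 1 SE, in bulk tumours (left, KMT5C over CTRL, n = 5 each) and in single-cell counts summed per tumour (right, RKIP over CTRL, n = 3 each); rows are grouped by role and the 2 axes differ in range. The filled point is CA12 at -0.47, the 1 called member, and the open points did not pass an adjusted p of 0.05.

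Carbonic anhydrases at the cell surface hydrate carbon dioxide and buffer the acid that glycolysis yields. CA12 had 21.4, 29.4, 26.2, 21.2 and 27.9 CPM in KMT5C tumours 807, 809, 816, 820 and 823, against 39.2, 27.6, 32.3, 41.9 and 34.3 CPM in CTRL tumours 801, 803, 804, 813 and 815. The arms overlapped only through KMT5C tumours 809 and 823 and CTRL tumour 803. The means were 25.2 ± 3.75 CPM in KMT5C tumours and 35.1 ± 5.66 CPM in CTRL tumours (SD, n = 5 each), and the log2 fold change was -0.47 ± 0.12 (SE; edgeR, adjusted p = 0.0425). The call was near its threshold: over the fits that left out 1 tumour, the adjusted p of edgeR ran between 0.0256 and 0.130, and the call was lost without CTRL tumour 801, 804, 813 or 815 and without KMT5C tumour 807, 816 or 820. It was also lost with RLE scaling (edgeR, adjusted p = 0.0503) and without KMT5C tumours 809 and 820, the highest in muscle markers (log2 fold change -0.48, edgeR, adjusted p = 0.147).

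The related CA9, a classic HIF target in tumours, had 65.6 to 118 CPM in KMT5C tumours and 82.9 to 149 CPM in CTRL tumours, with a log2 fold change of -0.23 ± 0.16 (SE; edgeR, adjusted p = 0.518). SLC16A3, the lactate exporter MCT4, had a log2 fold change of -0.04 ± 0.10 (SE; edgeR, adjusted p = 0.901). Neither passed the test.

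Among the other 6 role groups no member passed, and the member with the largest change of each is given here. ERO1A, an oxidase of the endoplasmic reticulum that forms disulfide bonds, had 373, 446, 399, 413 and 467 CPM in KMT5C tumours 807, 809, 816, 820 and 823, against 365, 312, 290, 420 and 337 CPM in CTRL tumours 801, 803, 804, 813 and 815. In every KMT5C tumour its level was above 4 of the CTRL tumours, and CTRL tumour 813 lay within the KMT5C range. Its log2 fold change was 0.28 ± 0.10 (SE; edgeR, adjusted p = 0.134), and it passed the test without CTRL tumour 813 (log2 fold change 0.38, edgeR, adjusted p = 0.0397) and with no filter on low counts (0.28, edgeR, adjusted p = 0.0430).

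ENO2, the enolase isozyme of neurons that hypoxia also induces, had 197, 257, 222, 199 and 289 CPM in KMT5C tumours 807, 809, 816, 820 and 823, against 259, 280, 271, 361 and 249 CPM in CTRL tumours 801, 803, 804, 813 and 815. The lowest 3 values were in KMT5C tumours, and the arms overlapped above them. The log2 fold change of ENO2 was -0.29 ± 0.12 (SE; edgeR, adjusted p = 0.217). Together with CA12 and ERO1A, ENO2 made up the 3 of 39 members with an unadjusted p under 0.05, where 16.8% of all genes had one.

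ADM, the vasodilator peptide adrenomedullin, had 63.7, 144, 74.1, 75.0 and 135 CPM in KMT5C tumours 807, 809, 816, 820 and 823, against 104, 116, 108, 197 and 79.3 CPM in CTRL tumours 801, 803, 804, 813 and 815. The spread within each arm exceeded 2-fold, and the log2 fold change of -0.30 ± 0.31 (SE; edgeR, adjusted p = 0.699) did not pass. PFKFB4, a bifunctional enzyme that sets the level of the glycolytic activator fructose 2,6-bisphosphate, had a log2 fold change of -0.16 ± 0.10 (SE; edgeR, adjusted p = 0.486). PGK1, the first ATP-yielding enzyme of glycolysis, had one of 0.17 ± 0.10 (SE; edgeR, adjusted p = 0.444). EGLN1, the main prolyl hydroxylase of HIF alpha, had one of 0.14 ± 0.09 (SE; edgeR, adjusted p = 0.443).

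The remaining members had log2 fold changes from -0.26 for DDIT4, a brake on the mTOR kinase, to 0.24 for ANGPTL4, a secreted inhibitor of lipoprotein lipase. The glucose transporters SLC2A1 (0.04 ± 0.17, SE) and SLC2A3 (0.08 ± 0.24, SE) and the angiogenic factor VEGFA (-0.06 ± 0.12, SE) were among them. Around the pathway, ARNT2, a partner of HIF alpha, was the 1 called of 14 HIF regulators tested. ARNT2 averaged 2.14 ± 0.506 CPM in KMT5C tumours and 4.15 ± 0.985 CPM in CTRL tumours (SD, n = 5 each), a log2 fold change of -0.95 ± 0.19 (SE; edgeR, adjusted p = 0.0131). HIF1A itself averaged 307 ± 31.0 CPM in KMT5C tumours and 270 ± 33.4 CPM in CTRL tumours (SD, n = 5 each), and its change of 0.19 ± 0.09 on the log2 scale did not pass (SE; edgeR, adjusted p = 0.328).

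Of 27 other hypoxia targets tested none was called, with 5 at an unadjusted p under 0.05 in edgeR, and of 21 other genes of glycolysis and pyruvate use none was called either, with 1 at an unadjusted p under 0.05. DESeq2 called the same number of members as edgeR, 1, which was CA12.

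Within each bulk arm the members moved together from tumour to tumour. In the KMT5C arm, tumour 823 was the highest for 19 of 28 hypoxia targets and for 11 of 11 enzymes, and tumour 807 was the lowest for 25 of the 28 and for 11 of the 11. In the CTRL arm, tumour 813 was the highest for 26 of 28 hypoxia targets and for 10 of 11 enzymes. Over all genes tested, KMT5C tumour 823 was the highest of its arm for 26.9%, KMT5C tumour 807 the lowest for 18.7%, and CTRL tumour 813 the highest for 21.4%.

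With library size scaling in place of the TMM scaling used above, the counts were 14 of 28 and 10 of 11 for KMT5C tumour 823, 21 of 28 and 11 of 11 for KMT5C tumour 807, and 24 of 28 and 9 of 11 for CTRL tumour 813. With that scaling, KMT5C tumour 823 was the highest of its arm for 18.8% of all genes tested. KMT5C tumour 807 was the lowest for 10.5% and CTRL tumour 813 the highest for 15.9%. Of 27 other hypoxia targets that are no members, KMT5C tumour 823 was the highest of its arm for 14 with TMM scaling and 10 with library size scaling. KMT5C tumour 807 was the lowest for 9 with TMM scaling and 5 with library size scaling. CTRL tumour 813 was the highest for 19 with TMM scaling and 17 with library size scaling.

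The hypoxia targets spread more within an arm than genes at large. The median over the 28 targets of the ratio between the highest and the lowest tumour was 1.45 in the KMT5C arm and 1.54 in the CTRL arm, and over all genes it was 1.34 in the KMT5C arm and 1.40 in the CTRL arm. Over the 11 enzymes it was 1.40 in the KMT5C arm and 1.22 in the CTRL arm. The widest spread was that of ADM, with ratios of 2.26 in the KMT5C arm and 2.49 in the CTRL arm. PLOD2, a lysyl hydroxylase of collagen, had the narrowest of the hypoxia targets in the KMT5C arm, at 1.04. Tumour 813 was not the CTRL library with the lowest or the highest depth, and its mean log2 CPM of muscle markers was the highest of its arm at 1.24, against 1.29 to 2.06 in the KMT5C arm.

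**Figure D2:**
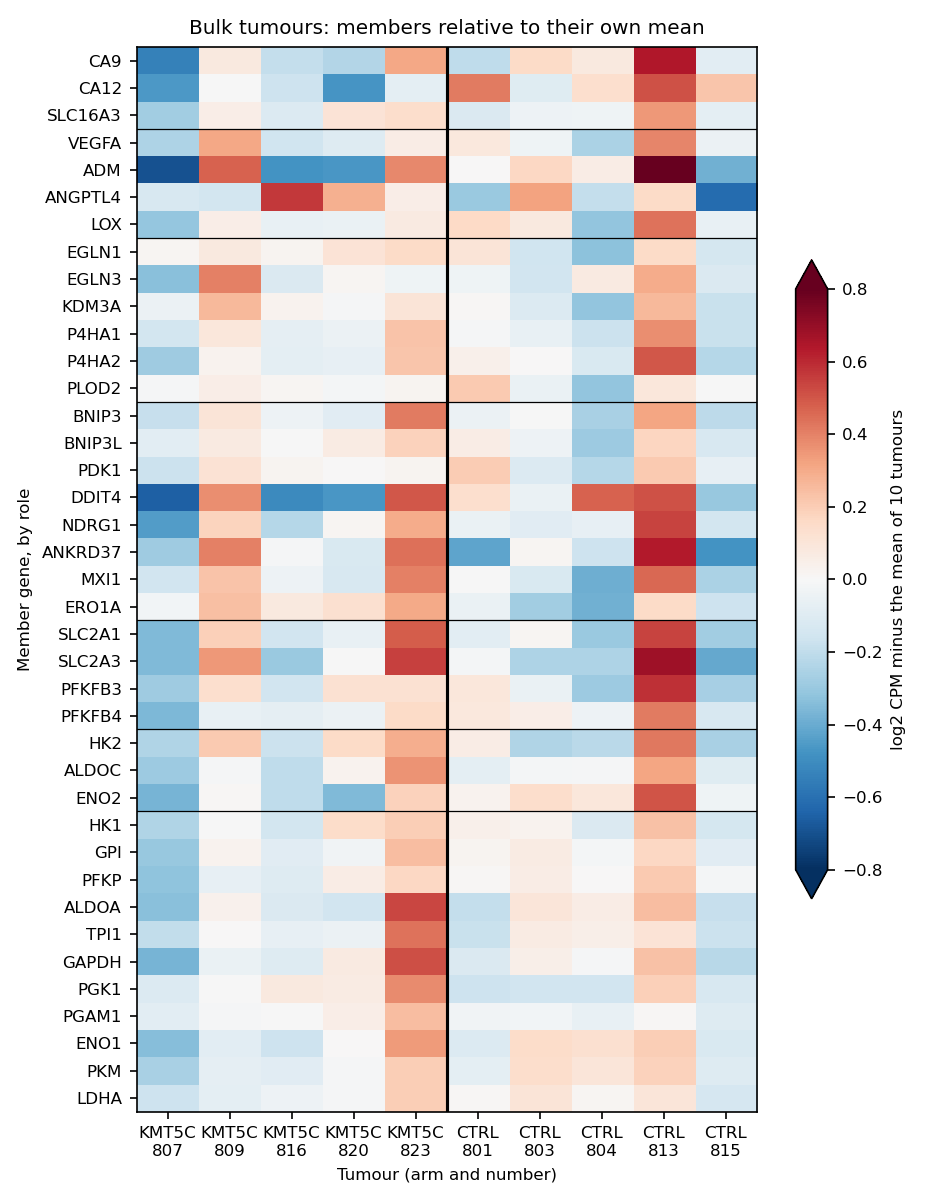
Each cell is the log2 CPM of 1 member in 1 bulk tumour minus that member's mean over the 10 tumours, with KMT5C tumours left and CTRL tumours right of the heavy line and members grouped by role. CTRL tumour 813 and KMT5C tumour 823 are red over most rows and KMT5C tumour 807 is blue over most rows.

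NDRG1, a stress protein that hypoxia strongly induces, shows the pattern. It had 1619, 2494, 1883, 2228 and 2718 CPM in KMT5C tumours 807, 809, 816, 820 and 823, against 2128, 2077, 2114, 3211 and 1996 CPM in CTRL tumours 801, 803, 804, 813 and 815. CTRL tumour 813 stood above the other 4 CTRL tumours, which lay within a narrow range. The log2 fold change of NDRG1 was -0.08 ± 0.15 (SE; edgeR, adjusted p = 0.855).

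In the single-cell tumours, with counts summed per tumour and the replicate experiment as a block, none of the 39 members passed an adjusted p of 0.05 in edgeR, and DESeq2 called 0 as well. The cells of the arms lay in different columns of the capture chip, so an effect of chip column cannot be told apart from the construct. Of 14528 genes tested, edgeR called 1, rat Pebp1 (0.00688%). An unadjusted p under 0.05 was reached by 5 of 39 members, where 4.01% of all genes reached one. The log2 fold change was below 0 for 21 of 28 hypoxia targets and for 7 of 11 enzymes, and for 7225 of all 14528 genes. Its median was -0.22 over the hypoxia targets, -0.07 over the enzymes and 0.00 over all genes.

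The 5 members were CA9, PDK1 and NDRG1, lower in RKIP tumours, and GAPDH and TPI1, higher in RKIP tumours; PDK1, NDRG1, GAPDH and TPI1 were chosen after their values had been seen. CA9 had 21.1, 26.3 and 30.5 CPM in RKIP tumours 1, 2 and 3, against 44.9, 47.1 and 52.9 CPM in CTRL tumours 1, 2 and 3. Every RKIP value lay below every CTRL value, as for 4.47% of all genes. The log2 fold change of CA9 was -0.91 ± 0.23 (SE; edgeR, unadjusted p = 0.00630, adjusted p = 0.973). It was -0.97 to -0.82 over the fits that left out 1 experiment.

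PDK1, a mitochondrial kinase that inhibits pyruvate dehydrogenase, had 13.1, 14.5 and 17.3 CPM in RKIP tumours 1, 2 and 3, against 36.1, 32.7 and 25.8 CPM in CTRL tumours 1, 2 and 3. Here too the arms did not overlap, and the log2 fold change was -1.08 ± 0.31 (SE; edgeR, unadjusted p = 0.0121, adjusted p = 0.973). NDRG1 had 290, 354 and 317 CPM in RKIP tumours 1, 2 and 3, against 464, 483 and 335 CPM in CTRL tumours 1, 2 and 3. RKIP tumour 2 lay above CTRL tumour 3, so the arms of NDRG1 overlapped, while the RKIP tumour was the lower one in all 3 experiments. Its log2 fold change was -0.40 ± 0.14 (SE; edgeR, unadjusted p = 0.0273, adjusted p = 0.973).

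GAPDH and TPI1, which handle the triose phosphates, had the opposite sign. GAPDH had 493, 318 and 336 CPM in RKIP tumours 1, 2 and 3, against 311, 229 and 255 CPM in CTRL tumours 1, 2 and 3. TPI1 had 4270, 4331 and 4277 CPM in RKIP tumours 1, 2 and 3, against 3627, 3881 and 3634 CPM in CTRL tumours 1, 2 and 3. For both genes every RKIP value lay above every CTRL value, as for 4.43% of all genes. The log2 fold changes were 0.51 ± 0.11 for GAPDH and 0.21 ± 0.07 for TPI1 (SE; edgeR, adjusted p = 0.973 for each).

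**Figure D3:**
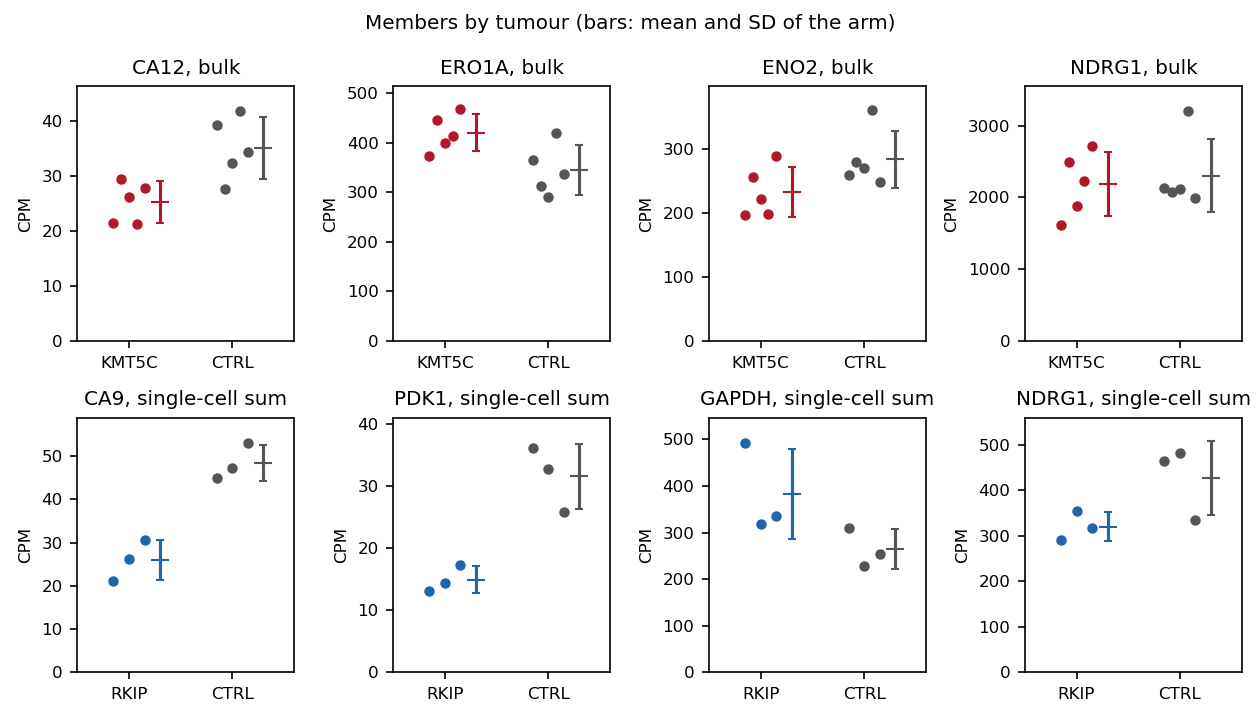
CPM per tumour of CA12, ERO1A, ENO2 and NDRG1 in bulk tumours (top, KMT5C and CTRL, 5 points each) and of CA9, PDK1, GAPDH and NDRG1 in summed single-cell counts (bottom, RKIP and CTRL, 3 points each), with the mean and SD of the arm beside the points. The 3 RKIP points lie below the 3 CTRL points for CA9 and PDK1 and above them for GAPDH, and the arms overlap in the other panels.

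The members with the largest absolute change of each remaining role group did not pass the test. DDIT4 had 4.17, 8.89 and 4.39 CPM in RKIP tumours 1, 2 and 3, against 30.4, 7.19 and 16.8 CPM in CTRL tumours 1, 2 and 3. CTRL tumours 1 and 3 lay above the RKIP tumours and CTRL tumour 2 within them. Its log2 fold change was -1.54 ± 0.70 (SE; edgeR, adjusted p = 0.973), and -2.40 to -0.82 over the fits that left out 1 experiment. PLOD2 had a log2 fold change of -0.40 ± 0.17 (SE; edgeR, adjusted p = 0.973). LOX, which cross-links collagen, had one of -0.40 ± 0.36 (SE; edgeR, adjusted p = 0.973), which became 0.01 without experiment 3.

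PFKFB4 had a log2 fold change of -0.31 ± 0.44 (SE; edgeR, adjusted p = 0.975), which became 0.27 without experiment 1. ALDOC, an aldolase of the brain, had one of -0.45 ± 0.61 (SE; edgeR, adjusted p = 0.973). EGLN1 and the enzyme GPI were the other members whose arms did not overlap, both lower in RKIP tumours, at -0.37 ± 0.26 for EGLN1 and -0.21 ± 0.11 for GPI (log2 fold change, SE). CA12, the member called in bulk, had 95.0, 78.8 and 75.2 CPM in RKIP tumours 1, 2 and 3, against 87.5, 94.3 and 69.5 CPM in CTRL tumours 1, 2 and 3, a log2 fold change of -0.01 ± 0.18 (SE; edgeR, adjusted p = 0.997). The outer lists gave 0 calls in edgeR over 13 HIF regulators, 26 other hypoxia targets and 17 other genes of glycolysis, with 1, 2 and 0 of them at an unadjusted p under 0.05.

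The annotation places other genes on the exons of some members, and no source used here gives the strand setting of the counting. In GENCODE 29, 53.5% of the exonic bases of ALDOA, an aldolase of muscle and most other cells, also lie in exons of other genes, 42.3% on the same strand. ALDOA averaged 1581 ± 207 CPM in bulk CTRL tumours (SD, n = 5) and 1.51 ± 0.895 CPM in single-cell CTRL tumours (SD, n = 3), so its single-cell values hold almost no counts. Its log2 fold change over RKIP tumours, -1.05 ± 0.97 (SE; edgeR, adjusted p = 0.973), is of that kind. GAPDH, with 62 named pseudogenes, averaged 3617 ± 434 CPM in bulk CTRL tumours (SD, n = 5) and 265 ± 42.0 CPM in single-cell CTRL tumours (SD, n = 3).

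PGAM1, with 13 named pseudogenes, averaged 357 ± 10.05 CPM in bulk CTRL tumours (SD, n = 5) and 11.1 ± 7.31 CPM in single-cell CTRL tumours (SD, n = 3). These 3 enzymes were the members more than 10-fold lower in single cells, and 26 of the 39 were within 3-fold. Exons of genes on the other strand cover 41.2% of DDIT4, 38.5% of CA9 and 35.2% of ANKRD37, and BNIP3 has 39 named pseudogenes. How far overlaps and pseudogenes bear on the counts was not tested. PGAM1 has 0% of its exonic bases overlapped, and BNIP3 averaged 353 CPM in bulk CTRL tumours and 361 CPM in single-cell CTRL tumours. Bulk identifiers such as that of ALDOA carry another version number than in GENCODE 29, so the overlaps may differ in the annotation used for counting.

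Variation between cells was compared at 1 depth, after each of 1481 cells had been thinned to 20000 counts and 87 shallower cells left out. The measure is the log2 squared coefficient of variation of a gene in a tumour minus the trend of all genes at the same mean, so that 0 is a gene as variable as others of its level. Averaged over the 6 tumours, 19 of 28 hypoxia targets and 6 of 10 measured enzymes lay above 0, where 58.5% of 10159 genes did. The median was 0.41 over the hypoxia targets, 0.12 over the enzymes and 0.13 over all genes. No member differed between the arms with limma at an adjusted p under 0.05, as for 0% of all genes; 3 of 38 members had an unadjusted p under 0.05, where 3.99% of all genes had one.

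With ENO1, described next, set apart, the most variable members were ENO2, at 1.66 and the 99.0th percentile of all genes, and VEGFA, at 1.35 and the 97.7th percentile. EGLN3, a prolyl hydroxylase that HIF itself induces, PFKFB4, ANGPTL4 and ADM followed at 1.16, 1.12, 1.11 and 1.07. The least variable were ERO1A at -0.69, the lactate exporter SLC16A3 at -0.55 and the collagen prolyl hydroxylase P4HA1 at -0.53. The value of ENO2 rested largely on CTRL tumour 2, with 5.27 there and 0.51 to 1.67 in the other 5 tumours.

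ENO1 is the enolase of most cells. Its variation was 5.74, 3.82 and 3.89 in RKIP tumours 1, 2 and 3, against 6.68, 6.19 and 5.95 in CTRL tumours 1, 2 and 3. The arms did not overlap, as for 4.51% of all genes in this direction, and the difference was -1.79 ± 0.47 (SE; limma, adjusted p = 0.934). ENO1 took more than 5% of the counts in 51 cells, and all 51 sat in row 18 of the capture chip, which held 59 cells over the 6 tumours.

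The median share of ENO1 was 8.98% in the cells of that row and 0.712% in the others, and row 18 was the highest row in 6 of 6 tumours. Without the 118 cells of rows 14 and 18 the mean variation of ENO1 was 0.58, against 5.38 with them, and the difference between the arms was 0.13 ± 0.40 (SE; limma, adjusted p = 0.982). Its log2 fold change over the sums was -0.15 ± 0.09 with all cells and 0.04 ± 0.07 without those rows (SE; edgeR, adjusted p = 0.973 and 0.985). BNIP3, a receptor for the removal of mitochondria, was 4.98 times higher in row 14 than in other rows, and row 14 was the highest in 5 of 6 tumours. The cause of the row patterns was not tested.

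Of the other members, EGLN3 varied more in RKIP tumours, at 1.62, 1.61 and 2.68 in RKIP tumours 1, 2 and 3, against -0.41, 1.36 and 0.12 in CTRL tumours 1, 2 and 3. These arms did not overlap, as for 4.42% of all genes, and the difference was 1.61 ± 0.57 (SE; limma, adjusted p = 0.934). PFKFB4 had -0.12, 0.99 and 0.28 in RKIP tumours 1, 2 and 3, against 1.47, 3.18 and 0.91 in CTRL tumours 1, 2 and 3. Its arms overlapped and the difference was -1.47 ± 0.48 (SE; limma, adjusted p = 0.934). EGLN3 was counted in 4.62% to 11.6% of the thinned cells of RKIP tumours and in 5.81% to 16.9% of those of CTRL tumours, so both its level and its variation rest on few cells. The differences of the leading members of the other roles were -0.26 ± 0.44 for CA9, -0.51 ± 0.60 for ADM, -0.89 ± 0.55 for DDIT4 and 1.07 ± 0.76 for HK2, the hexokinase that hypoxia induces, which had 3.31 in RKIP tumour 3 and -0.17 to 1.01 in the other 5 tumours (SE; limma, adjusted p between 0.934 and 0.962).

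**Figure D4:**
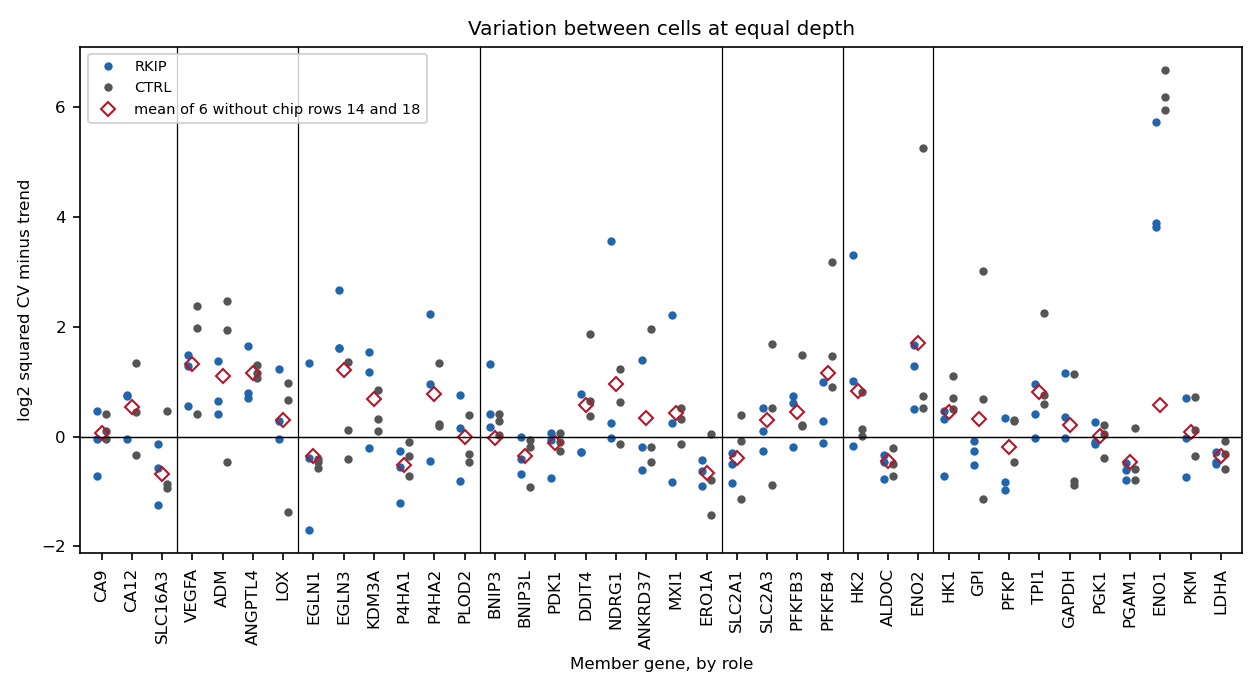
Residual log2 squared coefficient of variation of the 38 members measured over thinned cells, with 1 point per RKIP tumour (blue) and per CTRL tumour (grey) and an open diamond for the mean of the 6 tumours without chip rows 14 and 18; 0 is the trend of all genes. ENO1 stands at 3.82 to 6.68 in single tumours and at 0.58 without those rows, and the arms of most members overlap.

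Over the cells of a tumour the members' counts were weakly and mostly positively related. The median Spearman correlation over pairs of hypoxia targets was 0.0636, 0.0789 and 0.0979 in RKIP tumours 1, 2 and 3, against 0.0490, 0.0526 and 0.123 in CTRL tumours 1, 2 and 3. Over pairs of enzymes it was 0.0582, 0.168 and 0.221 in RKIP tumours 1, 2 and 3, against 0.0736, 0.0840 and 0.201 in CTRL tumours 1, 2 and 3. Over all gene pairs it was 0.00241 to 0.0186 in RKIP tumours and 0.00225 to 0.0178 in CTRL tumours. Each value rests on 237 to 260 cells of 1 tumour. These cells share that tumour and their thinned depth, and low counts keep such correlations small.

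The correlation was positive in all 6 tumours for 144 of 378 pairs of hypoxia targets, for 25 of 45 pairs of enzymes and for 99 of 280 pairs across the classes, where 4.11% of all pairs among 10227 genes were. Those genes were not matched to the members in level: 5555 of them reached a thinned mean of 0.5, as did 32 of the 38 members. The strongest pair joined both classes. NDRG1 and PGK1 had a mean correlation of 0.436, between 0.384 and 0.527 in RKIP tumours and between 0.373 and 0.418 in CTRL tumours. PGK1 and LDHA, the enzyme that turns pyruvate into lactate, had 0.415, BNIP3 and PGK1 0.369, BNIP3 and NDRG1 0.354, and CA9 and NDRG1 0.2996. Without chip rows 14 and 18, BNIP3 and PGK1 had 0.383 and BNIP3 and NDRG1 0.358.

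**Figure D5:**
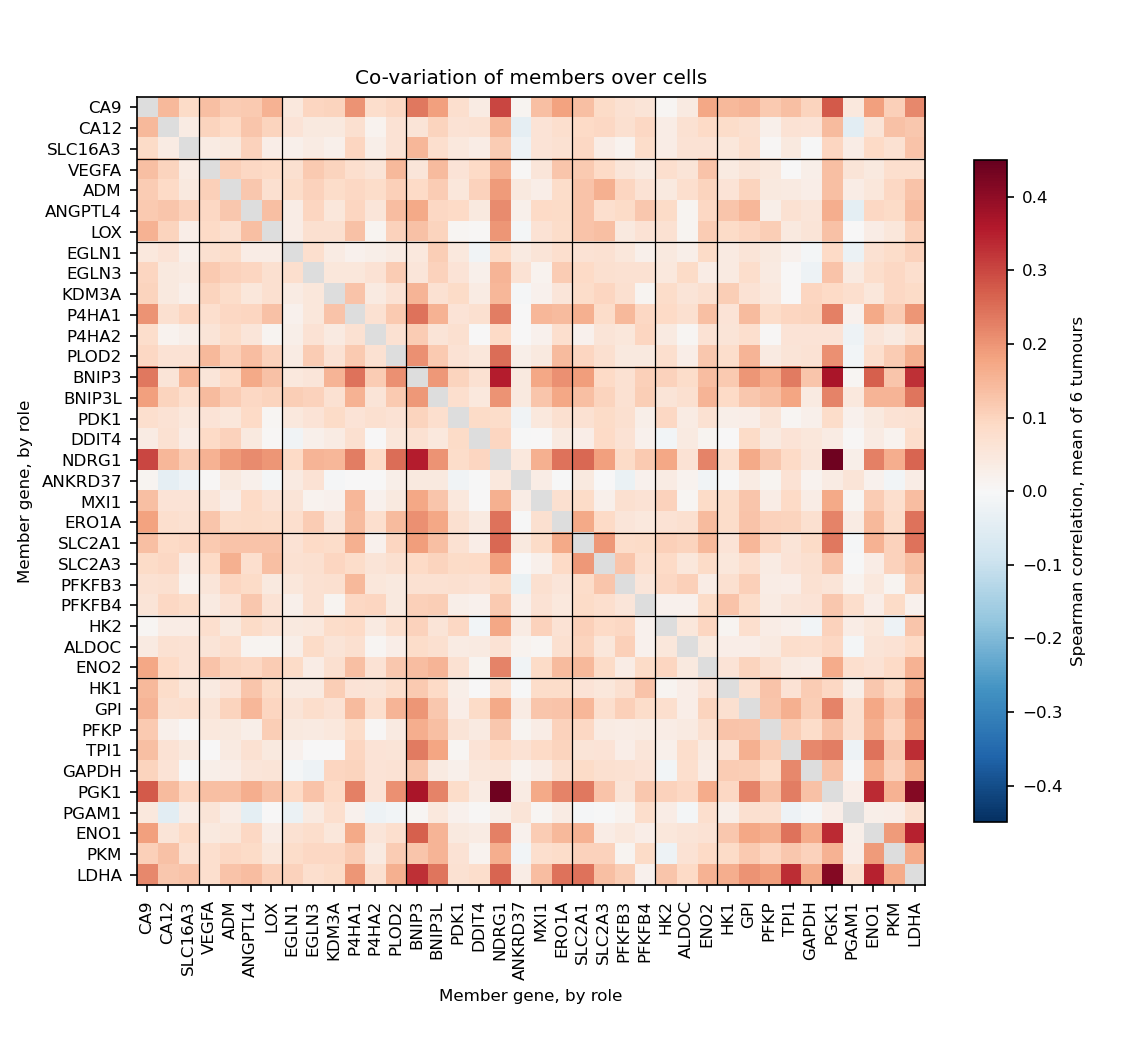
Spearman correlation of thinned counts over the cells of a tumour, averaged over the 6 tumours, for every pair of the 38 measured members, ordered by role with lines between roles; the diagonal is grey. The rows of NDRG1, BNIP3, PGK1 and LDHA are the darkest, up to 0.436, and those of ANKRD37 and PGAM1 are near 0.

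Averaged over the hypoxia targets, NDRG1 had the highest correlation, 0.170 with them and 0.163 with the enzymes, and PGK1, LDHA, BNIP3 and CA9 followed at 0.156, 0.139, 0.135 and 0.115 with the targets. The promoters of the last 4, printed above, held between 1 and 5 core matches, and no promoter was matched for NDRG1. Members low in this order held matches too, with 4 each for DDIT4 and ALDOC and 2 for ANKRD37, while PGAM1 held 0. A relation between matches and co-variation was not tested. ANKRD37, a small ankyrin repeat protein, had the lowest value, 0.0135, and PGAM1 had 0.0199. Both were counted in few cells: ANKRD37 in 1.92% to 6.64% of cells in RKIP tumours and in 1.66% to 9.70% in CTRL tumours.

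The counts of the 28 hypoxia targets summed per cell ranged widely. The sums per cell, their ratios and the correlations with them include the cells of chip rows 14 and 18. They were not computed without those rows. In RKIP tumours 1, 2 and 3 the hypoxia sum's median per chip column ran from 25.5 to 80, 36 to 70 and 33 to 89. In CTRL tumours 1, 2 and 3 it ran from 40.5 to 78, 32 to 60 and 34 to 64. The part of chip columns in the spread over cells was not tested. The 90th percentile of cells was 10.3, 6.47 and 6.67 times the 10th in RKIP tumours 1, 2 and 3, against 8.47, 5.87 and 6.76 times in CTRL tumours 1, 2 and 3. For the summed enzymes the ratio was 2.94, 2.88 and 2.72 in RKIP tumours 1, 2 and 3, against 3.61, 2.78 and 3.13 in CTRL tumours 1, 2 and 3. A sum with fewer counts spreads more by counting alone, and the hypoxia sum had a median of 39 to 51 counts in RKIP tumours and 47 to 54 in CTRL tumours, where the enzyme sum had 306.5 to 359.5 in RKIP tumours and 266 to 331 in CTRL tumours.

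The sums were positively related over cells, with Spearman correlations of 0.211, 0.409 and 0.367 in RKIP tumours 1, 2 and 3, against 0.327, 0.215 and 0.381 in CTRL tumours 1, 2 and 3. ENO1, highest in chip row 18, had the largest thinned mean of the enzymes, 256 counts, with TPI1 next at 78.3. BNIP3, highest in chip row 14, had the largest of the hypoxia targets, 8.46 counts. The part of these rows in the relation between the sums was not tested. The correlation of the hypoxia sum with a cell's depth before thinning was -0.193 to -0.108 in RKIP tumours and -0.127 to -0.0314 in CTRL tumours. The hypoxia targets held 0.327%, 0.308% and 0.254% of the counts in RKIP tumours 1, 2 and 3, against 0.318%, 0.315% and 0.318% in CTRL tumours 1, 2 and 3. RKIP tumour 3 was the lowest and RKIP tumour 1 the highest, so the arms overlapped.

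Among genes that are no members, IGFBP3, a binding protein of insulin-like growth factors, was most like the hypoxia sum, with a mean correlation of 0.364 over the 6 tumours. FTL, VIM, MALAT1, C4orf3, ERRFI1, MT1X, TMEM158, STC1 and ADAM8 followed, at 0.340 to 0.245, all positive in 6 of 6 tumours. At the other end stood STMN1, HMGB1, RPL35, NME1 and DNMT1, at -0.314 to -0.257 and negative in all 6. The median over 5523 genes that are no members was -0.0124, and 41.1% of them were above 0. All 18 measured genes of the list of other hypoxia targets were positive, with a median of 0.124, and IGFBP3 and STC1, a secreted glycoprotein, belong to it. Of 9 measured HIF regulators 4 were positive, with a median of -0.00863, and HIF1A had -0.0984. Of 9 measured other genes of glycolysis and pyruvate use 6 were positive, with a median of 0.00877, from -0.181 for LDHB to 0.147 for PFKL. All 8 measured cell cycle genes were negative, with a median of -0.153, the lowest being CCNB1, the cyclin of mitosis, at -0.202. Of 11 stress genes of tissue dissociation 9 were positive, with a median of 0.110, and HSPA1A was the highest at 0.156, and the part of these markers of handling in the hypoxia sum was not tested.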

How the data were processed

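Both deposited tables hold counts of reads per gene as whole numbers, not normalized. Trim Galore, STAR, featureCounts and the builds hg38 and hg19 are named, with no role or order, per the submitters' processing notes; versions, strand setting, molecular identifiers and removal of mouse reads are not given in the sources used here. The members, role groups and other lists were chosen with earlier results of these data known.

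For bulk tumours edgeR 4.0.16 in R 4.3.3 was run on the counts (filterByExpr, TMM scaling, glmQLFTest), and p-values were adjusted by the Benjamini-Hochberg method over all genes tested, with a threshold of 0.05. Single-cell counts were summed per tumour over cells with at least 1000 genes, which left out 1 cell, and tested alike with the replicate experiment as a block. Arms and tumours were read from the column names; experiment numbers are arbitrary, and per the labels each experiment took 1 tumour from either arm. By these names the RKIP and CTRL cells lay in different columns of the capture chip throughout. The block does not remove a difference between chip columns. Deviations from the arm means correlated at 0.161, 0.0434 and 0.158 between tumours with the same name ending and at -0.148 to 0.0245 between others. Whether replicate tumours came from separately made cells is not stated, so p-values measure the spread between these tumours.

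Each cell was thinned to 20000 counts (seed 1), without the shallower ones. Variation was the residual from a lowess trend, for genes whose thinned mean reached 0.1, compared with limma 3.58.1 and the block. Scripts were tested on simulated data. Full values are given for called members and for the member with the largest absolute change in each role group per comparison. They are also given for the ends of the co-variation order. Of other genes, they are given for called genes in the lists of HIF regulators, other hypoxia targets and other glycolysis genes. The 10 highest and 5 lowest correlations with the hypoxia sum are given among genes whose thinned mean reached 0.5. Alternatives were RLE scaling, DESeq2 1.42.0, no filter, fits without each tumour or experiment, no block, another depth or minimum mean. Leaving out chip rows 14 and 18 or the 2 KMT5C tumours highest in muscle markers, and ranking within chip columns, were chosen after seeing the data. Symbols and exon overlaps came from GENCODE 29. The pentose phosphate list is not reported here.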

Additional observations from a re-analysis of the deposited data

Results flagged for a closer look

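Within groups of 5 bulk tumours, 4 members had 1 tumour far from the others, judged by the gap to the nearest tumour over the range of the arm on the log2 CPM scale, with 0.71 as the limit. All 4 were CTRL tumour 813, which was the highest of its arm. The ratio was 0.904 for PGK1, with 1995 CPM against 1597 CPM in the next tumour, and 0.865 for NDRG1, with 3211 CPM against 2128 CPM. It was 0.824 for SLC16A3, with 473.5 CPM against 364.5 CPM, and 0.785 for ALDOC, with 44.9 CPM against 35.9 CPM. The screen covered 78 groups, and chance flags about 1 in 20 groups. No group of KMT5C tumours passed the limit, and the groups of 3 single-cell tumours were not screened.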

How the results depend on the processing

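In bulk 1 member was called, CA12. RLE scaling gave 0 called members, no filter gave 2 with ERO1A beside CA12, leaving out KMT5C tumours 809 and 820, the highest in muscle markers, gave 0, and fits without 1 tumour gave 0 to 1, which was ERO1A without CTRL tumour 813 and CA12 otherwise. All genes called in bulk numbered 531, against 1097 with DESeq2, 801 with no filter, 166 without those 2 tumours and 337 to 681 without 1 tumour. In the single-cell sums edgeR called 1 gene, against 60 with DESeq2, 0 with no replicate block and 0 to 1 without 1 experiment; the members called stayed at 0 in all of these, and so did the genes and members called for variation in the settings run, with and without the replicate block. Sign changes occurred without 1 experiment for LOX (log2 fold change -0.85 to 0.00775) and PFKFB4 (-0.85 to 0.27) in the sums and for ADM (-1.20 to 0.15) and HK2 (-0.0539 to 1.75) in variation, and for ENO1 in variation without chip rows 14 and 18 (0.13). For ENO1 the rows left out include row 18, which held all 51 cells with more than 5% of their counts in ENO1. For ERO1A, CTRL tumour 813 was the CTRL tumour within the KMT5C range. No value behind the other changes shows their cause, except that the alternatives without tumours or experiments hold fewer samples. The cause was not tested. Among all members, a sign change in some setting occurred for 19 of 39 in bulk, with main values of at most 0.09 in size, for 20 of 39 in the sums and for 26 of 38 in variation. The mean over tumours of the median correlation among hypoxia targets was 0.0775, against 0.111 with no thinning and 0.0712 with ranking within chip columns.

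The median SE of a member's log2 fold change was 0.20 in the single-cell sums, with 3 tumours per arm, and 0.12 in bulk, with 5 per arm. Members such as ALDOA, ALDOC, ANKRD37 and PGAM1 were counted in few cells, which limits their single-cell results. In bulk CTRL tumours ALDOA averaged 1581 CPM and PGAM1 357 CPM. The cause of their low single-cell counts was not tested.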
